A study of Homo sapiens with 8 samples.

Results

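Retinoic acid metabolism and its receptors were examined through 10 genes. They were chosen by name, with earlier results of these data known, as genes of a pathway used in the differentiation therapy of neuroblastoma. Every probe annotated to them was taken, which gave 17 of the 50599 probes tested. The genes are STRA6, ALDH1A2, DHRS3, CRABP1, CRABP2, RARA, RARB, RARG, CYP26A1 and CYP26B1. The samples are NGP cells, an established human neuroblastoma line, transduced by lentivirus with either a mock construct (4 arrays) or CFC1 cDNA (4 arrays), and both groups were selected with puromycin and grown in RPMI medium with serum. CFC1 encodes Cryptic, a co-receptor for Nodal and related ligands. Which promoter drives the transgene and whether each group is a pool or a clone is not stated in the labels. They also leave unsaid whether replicates are separate cultures, so each p-value reflects array-to-array spread that may be technical only.

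Retinol enters cells through STRA6, is oxidised to retinaldehyde and then, by ALDH1A2 and related dehydrogenases, to retinoic acid. DHRS3 returns retinaldehyde to retinol, the CRABP proteins carry retinoic acid in the cytosol, and the CYP26 enzymes clear it. Retinoic acid binds the receptors RARA, RARB and RARG, which sit with RXR partners on DNA and turn on genes that include CYP26A1, DHRS3 and RARB themselves. Isotretinoin, a retinoid, is given in neuroblastoma because retinoids can make such cells stop dividing and put out neurites.

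Each deposited value was read as a log2 difference from a baseline set for every probe. Neither the baseline nor the base of the logarithm is stated, so a value compares arrays for 1 probe and gives no level of expression, and every fold given below rests on the reading as log2. All differences below are the mean of the arrays labelled CFC1 minus the mean of the mock arrays on the log2 scale, with n = 4 in each group. The single CFC1 probe was not raised in the group that carries the name of the gene. It differed by -0.80 (95% interval -1.45 to -0.14, adjusted p = 0.0546 in limma over probes, and p = 0.057 in an exact two-sided permutation test whose smallest possible p is 0.029). In the limma fit over genes its adjusted p was 0.0398. The group is therefore called the arrays labelled CFC1, and each direction rests on the labels. Whether this probe can detect the transduced cDNA was not determined, so its value does not show whether the transgene is expressed. The profiles lay far apart, and 42.1% of all probes and 53.6% of probes with a gene name passed an adjusted p of 0.05. Of the 8 measured neuroblastoma markers, 6 were lower and none higher in the arrays labelled CFC1, as were 4 of 5 fibroblast markers and 3 of 3 Schwann and glial markers, where 28.2% of all genes were called lower. The mean deposited value of the neuroblastoma markers ran from 0.706 to 0.809 over the mock arrays and from -0.129 to 0.056 over the arrays labelled CFC1. The corresponding ranges were 0.428 to 0.558 and -0.262 to -0.151 for the fibroblast markers, and 0.212 to 0.914 and -0.634 to -0.3 for the Schwann and glial markers. Without levels, the values do not show whether any marker is expressed, and the part of these shifts in the results below was not tested. Fewer cells of a type and less RNA per cell cannot be told apart in these bulk samples.

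The retinoic acid genes were mostly lower in the arrays labelled CFC1. Of the 17 probes, 12 were lower, 1 was higher and 4 did not pass, where 22.1% of all probes and 26.4% of named probes were called lower. Of the probes that passed, 10 fell by at least 2-fold, and such passing probes made up 8.42% of all probes and 9.24% of named probes. The ALDH1A2 probe (-1.18) differed by that much but did not pass. After quantile normalization both STRA6 probes (-0.898 and -0.747) and CRABP2 probe A_21_P0001745 (-0.849) fell by less than 2-fold. The share of all probes with such a fall was not counted under that setting. The median difference was -1.34 over the 17 probes and -0.13 over all probes tested. CYP26A1, DHRS3 and RARB showed the largest differences, CRABP1, CRABP2 and STRA6 intermediate ones, and RARG a small one. Every probe was lower for 6 genes (STRA6, DHRS3, CRABP1, CRABP2, RARG and CYP26A1), and RARB was lower at 2 of its 3 probes. RARA had a probe that was slightly higher, and ALDH1A2 and CYP26B1 did not pass. The groups did not overlap in the same 13 probes that passed, and non-overlap was found in 42.6% of all probes and 54.7% of named probes. By the mean of each gene's probes, 7 of the 10 genes were lower and none higher, and the groups did not overlap in those 7, where 28.2% of all genes were called lower and 56.5% did not overlap.

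**Figure D1:**
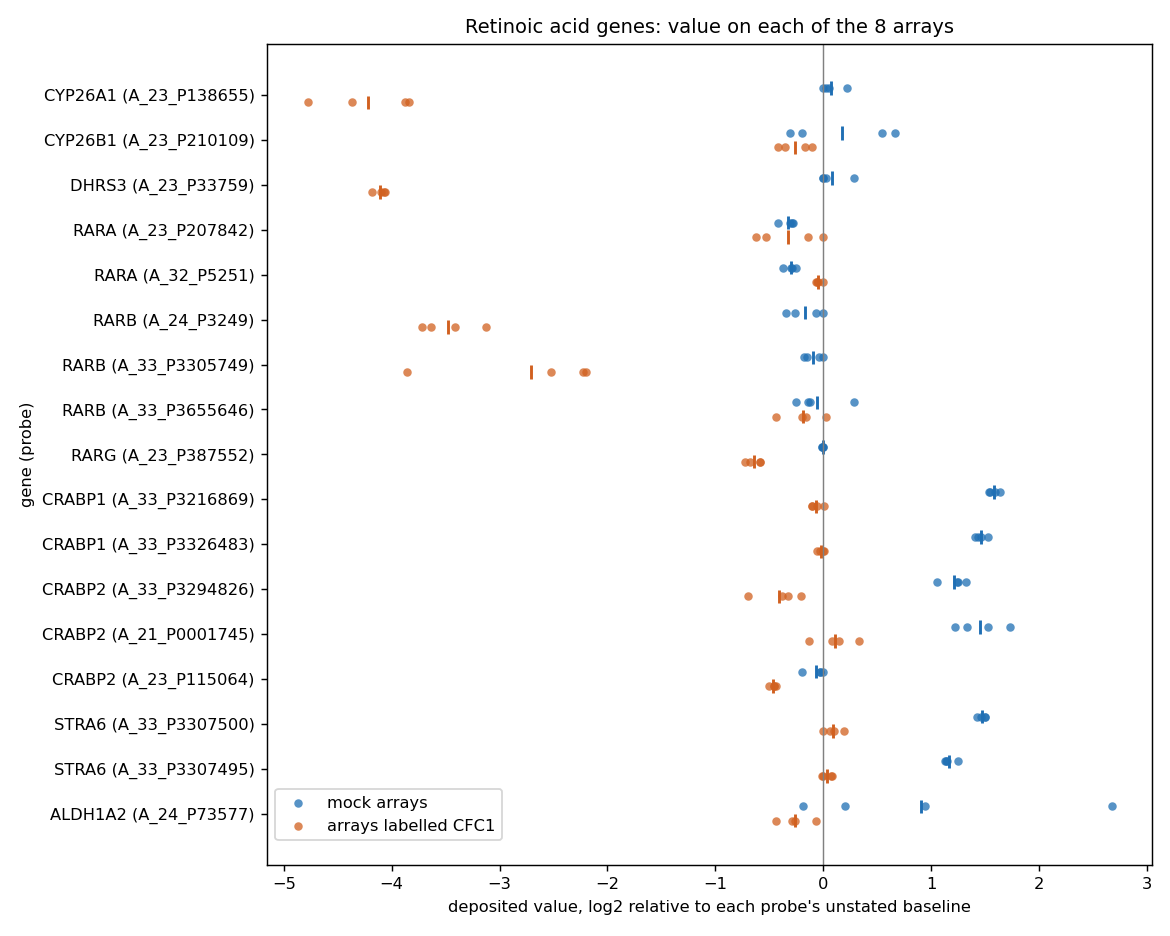
Deposited log2 values of the 17 probes (horizontal axis, relative to each probe's unstated baseline) on the 4 mock arrays and the 4 arrays labelled CFC1, 1 point per array, with a short vertical line at each group mean. The arrays labelled CFC1 lie between -4.78 and -3.84 for CYP26A1 and between -4.18 and -4.06 for DHRS3, while the mock arrays lie between 0.0 and 0.29 for both genes.

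The sequences before the start sites of CYP26A1 and RARB are shown because each holds a match to DR5, a form of the retinoic acid response element. DR5 was searched as 2 hexamers in the same orientation, each of them AGGTCA, its variant AGTTCA, the form GGGTCA or the form GGTTCA, with 5 bases between them, on both strands. The windows are those that RefSeq start sites give in build GRCh38.p14, 250 bases before to 50 after each start, and the 250 bases before the start are printed 5′ to 3′ with the DR5 element in capitals. The CYP26A1 stretch is chr10:93073643-93073892 and the RARB stretch is chr3:25428013-25428262, both on the + strand.
CYP26A1: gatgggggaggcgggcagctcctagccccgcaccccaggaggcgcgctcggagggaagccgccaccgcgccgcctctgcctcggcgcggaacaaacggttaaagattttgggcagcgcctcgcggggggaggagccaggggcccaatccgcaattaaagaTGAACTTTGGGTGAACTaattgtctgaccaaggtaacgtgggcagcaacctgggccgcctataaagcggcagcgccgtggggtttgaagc
RARB: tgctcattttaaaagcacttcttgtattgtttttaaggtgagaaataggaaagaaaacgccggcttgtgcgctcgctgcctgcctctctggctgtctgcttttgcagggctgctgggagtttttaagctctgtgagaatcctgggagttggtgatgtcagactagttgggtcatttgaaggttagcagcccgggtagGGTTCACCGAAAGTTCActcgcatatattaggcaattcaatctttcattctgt

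In CYP26A1 the element covered bases -90 to -74 from the start and lay on the opposite strand, where it reads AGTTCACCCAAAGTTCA. In RARB it covered bases -53 to -37 on the strand of the gene and reads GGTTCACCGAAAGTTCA. The 17 bases were identical at 15 positions, and counted from 1 at the 5′ end of the element the CYP26A1 to RARB substitutions were A1G and C9G. A DR5 element was found in 2 of the 23 windows of the 10 genes, 1 of 4 for RARB and 1 of 2 for CYP26A1, and in 31 of all 35116 windows (0.088%). No window of the 10 genes held the forms with 1 or 2 bases between the hexamers, DR1 and DR2, which 0.131% and 0.04% of all windows held. The 10 genes were chosen by name as genes of this pathway, so their share of windows with DR5 is no test of enrichment. A match is a description of the letters, and which start site the probes report on was not determined.

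STRA6, the membrane receptor that takes up retinol from its carrier in serum, was lower at both of its probes. Probe A_33_P3307500 read 1.5, 1.46, 1.5 and 1.43 in mock replicates 1 to 4 and 0.0, 0.06, 0.19 and 0.1 in the arrays labelled CFC1. Probe A_33_P3307495 read 1.14, 1.13, 1.15 and 1.25 in the mock arrays and 0.0, -0.01, 0.08 and 0.07 in the others. All 4 mock arrays stood above all 4 arrays labelled CFC1 at each probe, by gaps of 1.24 and 1.05. The differences were -1.39 (SE 0.054, adjusted p = 5.24e-07) and -1.13 (SE 0.049, adjusted p = 9.36e-07), or 2.61-fold and 2.19-fold. After quantile normalization they shrank to -0.898 and -0.747 and passed.

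ALDH1A2, the dehydrogenase that makes most of the retinoic acid of the embryo, varied widely in the mock arrays. Its probe read 0.94, -0.19, 2.68 and 0.2 in mock replicates 1 to 4 and -0.26, -0.44, -0.29 and -0.07 in the arrays labelled CFC1. Mock replicate 3 stood highest, mock replicate 2 lay among the arrays labelled CFC1, and the groups overlapped. The difference of -1.18 (95% interval -2.55 to 0.2, adjusted p = 0.166) did not pass, and without mock replicate 3 it was -0.584. The spread was 1.271 (SD, n = 4) in the mock arrays and 0.15 in the others.

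DHRS3, the reductase that returns retinaldehyde to retinol and so limits how much retinoic acid is made, was the most even of the large falls. Its probe read 0.03, 0.0, 0.29 and 0.0 in the mock arrays and -4.07, -4.06, -4.18 and -4.1 in the arrays labelled CFC1. The groups were 4.06 log2 units apart at their nearest points. The difference was -4.18 (SE 0.076, 95% interval -4.36 to -4.0, adjusted p = 1.56e-08), an 18.2-fold fall, and 80 of the 50599 probes had a lower one. After quantile normalization it was -6.939.

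CRABP1 and CRABP2, the cytosolic carriers of retinoic acid, were both lower. CRABP2 is known for handing the ligand to its receptor in the nucleus, and CRABP1 for holding it in the cytosol. The CRABP1 probe A_33_P3216869 read 1.54, 1.59, 1.64 and 1.55 in the mock arrays and -0.1, -0.1, -0.06 and 0.01 in the arrays labelled CFC1. The CRABP1 probe A_33_P3326483 read 1.41, 1.46, 1.44 and 1.53 against -0.06, -0.03, 0.01 and 0.0. The differences were -1.64 (SE 0.047, adjusted p = 1.14e-07) and -1.48 (SE 0.046, adjusted p = 1.64e-07), and the arrays of a group lay within 0.124 of each other at either probe.

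The 3 CRABP2 probes agreed in direction but not in size. Probe A_33_P3294826 read 1.06, 1.25, 1.24 and 1.32 in the mock arrays and -0.33, -0.21, -0.7 and -0.38 in the arrays labelled CFC1, a difference of -1.62 (SE 0.114, adjusted p = 1.29e-05). Probe A_21_P0001745 read 1.73, 1.53, 1.33 and 1.22 against -0.13, 0.15, 0.33 and 0.08, a difference of -1.34 (SE 0.14, adjusted p = 0.000121). Both placed all mock arrays well above the others. Probe A_23_P115064, annotated to the RefSeq transcript NM_001878, read -0.2, -0.03, 0.0 and -0.03 against -0.46, -0.5, -0.46 and -0.44. Here the groups were 0.24 apart and the difference was -0.40 (95% interval -0.53 to -0.27, adjusted p = 0.000643), an interval that does not reach those of the other probes (-1.89 to -1.35 and -1.67 to -1.01). Which transcripts each probe detects was not determined.

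The 3 receptors, which share a DNA-binding and a ligand-binding domain, differed in direction and size. RARA, the widely expressed receptor, had 2 probes annotated to the same transcript. Probe A_32_P5251 read -0.37, -0.29, -0.3 and -0.25 in the mock arrays and -0.06, -0.07, 0.0 and -0.05 in the arrays labelled CFC1. This probe was higher by 0.26 (SE 0.045, adjusted p = 0.00232), a 1.19-fold rise, without overlap. Probe A_23_P207842 read -0.28, -0.29, -0.31 and -0.42 against 0.0, -0.14, -0.53 and -0.62. Its arrays labelled CFC1 lay on both sides of the mock arrays, and the difference was 0.00 (95% interval -0.34 to 0.34, adjusted p = 0.989). The mean of both probes was 0.13 (adjusted p = 0.16), so a rise of RARA rests on a single probe.

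RARB, the receptor that is itself induced by its ligand and is often silenced in tumours, showed the largest receptor difference. Its start-site window holds the DR5 match printed above. Probe A_24_P3249 read 0.0, -0.26, -0.07 and -0.34 in the mock arrays and -3.13, -3.72, -3.64 and -3.41 in the arrays labelled CFC1. Probe A_33_P3305749 read 0.0, -0.04, -0.18 and -0.15 against -3.86, -2.52, -2.23 and -2.2. Replicate 1 was the lowest array labelled CFC1 at the latter probe and the highest at the former. The differences were -3.31 (SE 0.145, adjusted p = 9.88e-07) and -2.61 (SE 0.361, adjusted p = 0.000601), and both probes are annotated to transcript NM_000965.

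The third RARB probe, A_33_P3655646, read -0.12, -0.25, -0.14 and 0.29 in the mock arrays and -0.2, -0.44, -0.16 and 0.03 in the others. The groups overlapped and the difference was -0.13 (95% interval -0.47 to 0.21, adjusted p = 0.496). It is annotated to a cDNA, BC069735, rather than to that transcript, and its interval lies apart from those of the other RARB probes (-3.65 to -2.97 and -3.46 to -1.76). After quantile normalization the 3 probes gave -5.904, -4.739 and -0.066. STRA8, a gene of the lists below, read -0.2, -0.27, -0.15 and 0.23 in the mock arrays and -0.25, -0.41, -0.2 and 0.02 in the others. The third RARB probe lay close to these values, and whether it detects RARB in these samples was not determined.

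RARG, the receptor prominent in skin and in developing cartilage, read -0.01, 0.0, -0.01 and 0.0 in the mock arrays and -0.72, -0.68, -0.59 and -0.59 in the arrays labelled CFC1. The groups lay 0.57 apart, and the fall was 0.64 (SE 0.047, adjusted p = 1.61e-05), or 1.56-fold. Its interval (-0.75 to -0.53) overlapped neither the intervals of the 2 lower RARB probes nor those of the RARA probes. Differences between receptors were not tested beyond these intervals.

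CYP26A1 and CYP26B1 oxidise retinoic acid to forms that the cell discards, and CYP26A1 is among the genes that retinoic acid induces most readily. The CYP26A1 probe, for the gene whose DR5 match is printed above, read 0.05, 0.0, 0.22 and 0.03 in the mock arrays and -3.88, -3.84, -4.78 and -4.37 in the arrays labelled CFC1. The groups were 3.84 apart. The difference of -4.29 (SE 0.21, 95% interval -4.79 to -3.8, adjusted p = 1.8e-06), a 19.6-fold fall, was the largest of the 17 probes, and 65 of the 50599 probes had a lower one. Its interval contains that of DHRS3, so these genes cannot be ordered, although the arrays labelled CFC1 spread more for CYP26A1 (SD 0.443, n = 4) than for DHRS3 (SD 0.055). After quantile normalization the value was -6.972.

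CYP26B1 read 0.67, -0.2, -0.31 and 0.55 in the mock arrays and -0.17, -0.42, -0.35 and -0.1 in the arrays labelled CFC1. Mock replicates 2 and 3 lay among the arrays labelled CFC1. The difference was -0.43 (95% interval -1.0 to 0.13, adjusted p = 0.217) and did not pass, and the interval lies apart from that of CYP26A1. Without mock replicate 1 it was -0.27.

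**Figure D2:**
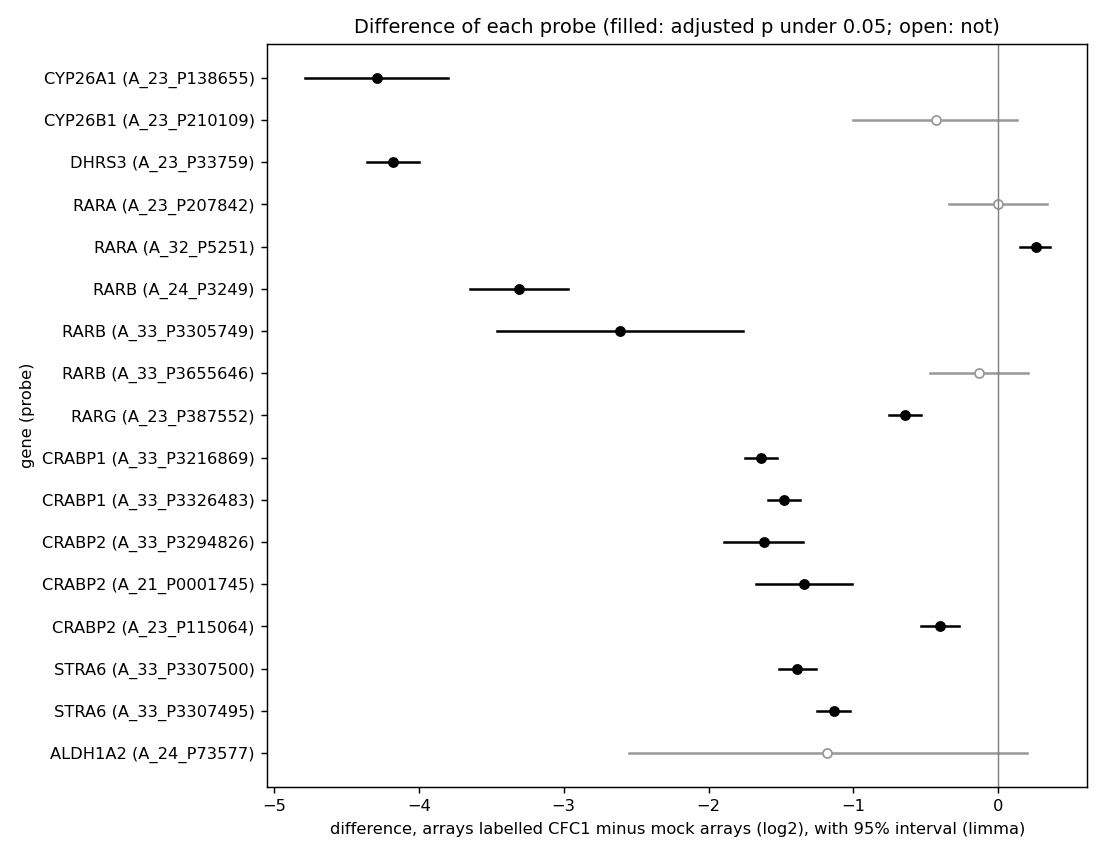
Difference of each of the 17 probes, arrays labelled CFC1 minus mock arrays (log2, horizontal axis), with the 95% interval from limma as a line. Filled points passed an adjusted p of 0.05 and open points did not; CYP26A1 (-4.29) and DHRS3 (-4.18) lie farthest to the left, and RARA probe A_32_P5251 (0.26) is the only filled point to the right of 0.

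Which group lay near the baseline differed between genes and, for CRABP2, between probes. For CYP26A1, DHRS3, RARG and the 2 lower RARB probes the group means of the mock arrays lay between -0.169 and 0.08, and those of the arrays labelled CFC1 between -4.218 and -0.643. For CRABP1, STRA6 and the CRABP2 probe A_21_P0001745 the arrays labelled CFC1 lay near the baseline, with means between -0.062 and 0.108, and the mock arrays above it, with means between 1.169 and 1.58. The CRABP2 probe A_23_P115064 had means of -0.067 in the mock arrays and -0.467 in the arrays labelled CFC1. For the CRABP2 probe A_33_P3294826 these means were 1.217 and -0.405. As the baseline is not stated, these values do not show which group changed.

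Of the 29 genes with a DR5 element in a start-site window, 17 were tested as genes, which take the mean of their probes. Of these 17, 4 were higher, 5 lower and 8 did not pass, where 29.7% of all 21524 genes were called higher and 28.2% lower. Their median difference was -0.15, beside -0.07 over the 16413 tested genes with any window. Without CYP26A1 and RARB, 4 of 15 were higher and 3 lower, with a median of -0.14. Both shares are near those of all genes.

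The other genes of the pathway were counted by gene in 3 lists, and 57.9% of all genes passed in either direction. Of the 55 genes tested, 13 rose, 15 fell and 27 did not pass, and the split of calls turned to 16 higher and 11 lower after quantile normalization to 14 and 11 with median centring, and to 17 and 12 with E1A control spots as the reference. The calls over all genes moved the same way, with lower calls making up 48.7% of them as deposited, 39.4% after quantile normalization, 45.3% with median centring and 42.8% with the E1A spots. The medians of the lists (-0.05, -0.09 and 0.03) lay near that of all genes (-0.09), whereas the median of the 10 genes described above was -1.22.

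Of 21 genes of retinoid synthesis, storage and transport, 5 rose and 4 fell. FABP5, a fatty-acid carrier that can also bring retinoic acid to the receptor PPARD, had the largest difference of any gene in the 3 lists. It read 0.09, 0.1, 0.06 and 0.06 in the mock arrays and 4.16, 4.14, 4.17 and 4.17 in the arrays labelled CFC1, a rise of 4.08 (SE 0.029, adjusted p = 5.44e-10). Its 3 probes ran from 4.05 to 4.15, and because FABP5 has near-identical pseudogenes its value is uncertain.

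The other 2 retinaldehyde dehydrogenases were lower. ALDH1A3 read 1.13, 1.06, 1.18 and 1.22 in the mock arrays and -1.69, -1.78, -1.5 and -1.71 in the arrays labelled CFC1, a fall of 2.82 (SE 0.068, adjusted p = 2.53e-08). ALDH1A1 fell by 1.18 (SE 0.107, adjusted p = 3.47e-05) as a mean of 2 probes that disagreed, at -2.50 and 0.15. RDH12, a retinal reductase, fell by 1.18 (SE 0.137, adjusted p = 0.000143), and by 0.65 after quantile normalization. All 4 mock arrays lay above all arrays labelled CFC1 for these 3 genes.

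Of 16 receptor partners and coregulators, 3 rose and 7 fell. PRAME, a tumour antigen that represses retinoic acid receptors, fell by 2.0 (SE 0.185, adjusted p = 3.79e-05), and its probes gave -2.69, -2.52 and -0.77, the last with overlapping groups. MED1, a Mediator subunit that binds nuclear receptors, and RXRB, 1 of the RXR partners, fell by 0.64 (SE 0.056, adjusted p = 2.6e-05) and 0.51 (SE 0.039, adjusted p = 1.18e-05). The MED1 value was -0.327 after quantile normalization. PPARD, the receptor that FABP5 serves, rose by 0.56 (SE 0.084, adjusted p = 0.000659), with both probes higher (0.54 and 0.57).

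Of 18 genes known to be induced by retinoic acid outside its own metabolism, 5 rose and 4 fell. RARRES1, named for its response to a retinoid, read -0.31, 0.68, 0.36 and -1.08 in the mock arrays and 2.27, 2.0, 2.4 and 2.56 in the arrays labelled CFC1, a rise of 2.39 (SE 0.371, adjusted p = 0.000777). RARRES2, the adipokine chemerin, rose by 1.81 (SE 0.438, adjusted p = 0.00826) and ICAM1, an adhesion molecule, by 2.20 (SE 0.127, adjusted p = 2.55e-06). NTRK2, the receptor for BDNF, fell by 1.83 (SE 0.146, adjusted p = 1.61e-05) as the mean of 3 probes, of which A_33_P3322804 gave -4.75 and the others -0.51 and -0.22. The first NTRK2 probe read 4.39, 4.36, 4.31 and 4.36 in the mock arrays and -0.32, -0.57, -0.47 and -0.24 in the others.

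**Figure D3:**
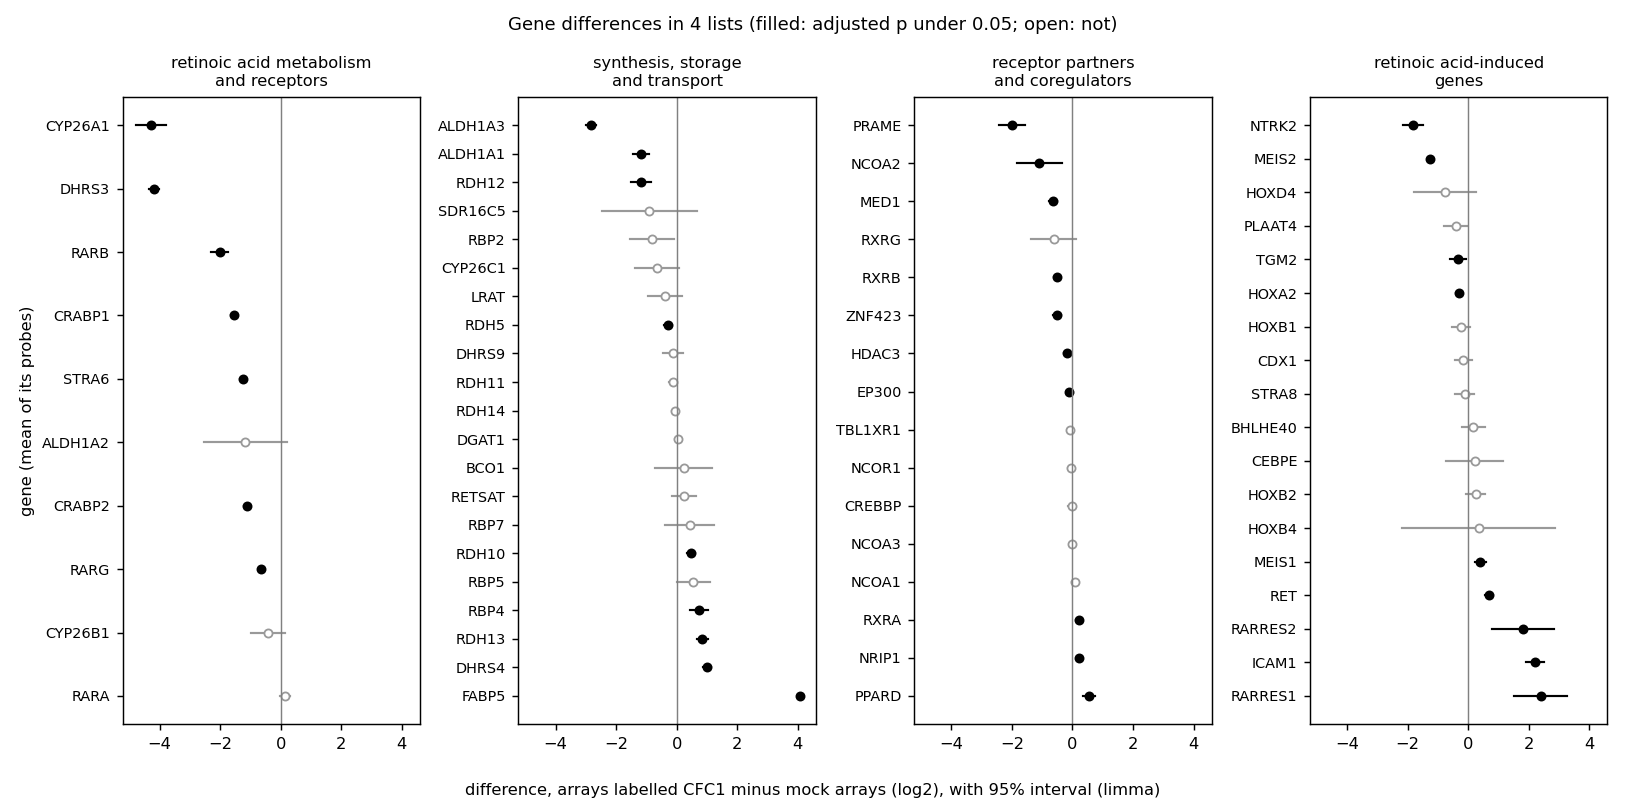
Differences by gene, as the mean of its probes (log2, arrays labelled CFC1 minus mock arrays, horizontal axis), with 95% intervals from limma, for the 10 retinoic acid genes and the 3 further lists. Filled points passed an adjusted p of 0.05; in the first panel 7 filled points lie to the left of 0 and none to the right, and in the other panels filled points lie on both sides, from ALDH1A3 (-2.82) to FABP5 (4.08).

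The genes with values most like those of CYP26A1 over the 8 arrays were NXPH4, ITGA8 and PKP2, at Euclidean distances of 1.34, 1.41 and 2.68 (Pearson r of 0.994, 0.993 and 0.985 across the 8 arrays). Their differences were -3.68, -3.55 and -4.04. These correlations follow from the gap between the groups, which a large share of genes has, and the 8 arrays share that gap.

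Each gene was set beside the 10 tested genes on either side of it in the RefSeq order, a description chosen after the data were seen. In 6 of the 10 genes (CYP26A1, DHRS3, RARB, CRABP1, STRA6 and ALDH1A2) the difference lay below those of all 20 neighbours, although ALDH1A2 did not pass the test. The share of all tested genes that lie below their 20 neighbours was not counted, so this count has no background to be read against. With the genes and their neighbours refitted, CYP26A1, DHRS3 and CRABP1 kept that place after quantile normalization, with array weights and with each array left out. The remaining alternatives could not change a place, because they leave all differences as they were, shift them alike or multiply them alike. ALDH1A2 lost it without mock replicate 3, at -0.584 with 2 neighbours below it. RARB and STRA6 each lost it to 1 neighbour when CFC1 replicate 3, mock replicate 1 or mock replicate 4 was left out, and STRA6 also when CFC1 replicate 4 was. The count over these alternatives was 4 to 6 of the 10 genes. The medians of the neighbours ran from -0.67 for CRABP2, whose neighbours included 12 lower and 2 higher genes, to 0.10 for CYP26B1. CYP26A1 (-4.29) lay far from its lowest neighbour (-1.46), and DHRS3 (-4.18) was closer to its own (-3.49). RARB (-2.02) lay next to its own (-1.87) as a mean of probes that gave -3.31, -2.61 and -0.13. The place of RARB therefore depends on averaging in the last probe. CRABP1 (-1.56) and STRA6 (-1.26) had neighbours as low as -1.49 and -1.26, and RARG and CRABP2 lay within the range of theirs.

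**Figure D4:**
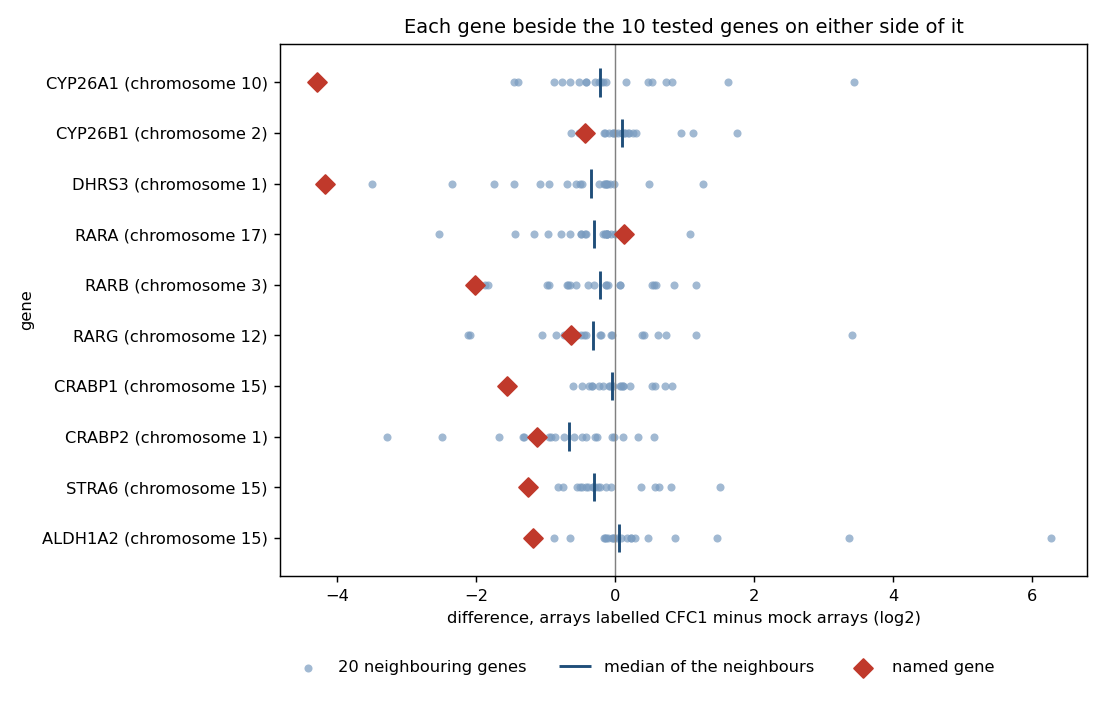
Difference of each of the 10 genes (diamond, mean of its probes, log2, arrays labelled CFC1 minus mock arrays) beside those of the 20 neighbouring tested genes (points) and their median (vertical line). CYP26A1 (-4.29) stands farthest from its neighbours, whose median was -0.21, while RARG (-0.64) and CRABP2 (-1.12) fall among theirs.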

How the data were processed

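Total RNA of 8 samples was labelled with Cyanine3 on one-color Agilent arrays, per the labels' protocols. The deposited table holds 50739 rows on a logarithmic scale, read here as log2 values. How features were extracted and scaled, and which logarithm base was used, is not given in the sources used here. Deposited log2 values ran from -13.0 to 9.81, and no probe had all 8 arrays on the same side of 0. The table has no background flags, so nearness to background was not measured, and precision is limited by the number of arrays. Some different genes read nearly alike over the arrays labelled CFC1. SOX10 read -0.33, -0.57, -0.49 and -0.24 in replicates 1 to 4, and NTRK2 probe A_33_P3322804 read -0.32, -0.57, -0.47 and -0.24. ALDH1A2, CYP26B1 and RARB probe A_33_P3655646 also lay near each other in these arrays. Whether such values are background was not tested. Leaving out 140 control spots gave 50599 probes, 31993 of them with a gene name (28419 through accession in the RefSeq table of GRCh38.p14, 3072 through symbol, 480 through synonym and 22 as annotated), and 18606 stayed unnamed.

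The groups were compared with lmFit and eBayes of limma 3.58.1 (R 4.3.3), without a block, over all probes and, for lists, over 21524 genes as the mean of their probes. P-values are two-sided and Benjamini-Hochberg adjusted, with a threshold of 0.05. Each of the 10 genes was named with every probe, and each other list with up to 4 genes of the largest difference among those past the threshold without overlap. Of the listed pathway genes, 4 were not analysed here. The genes and lists were chosen with earlier results of these data known. Alternatives were quantile normalization, a block for the replicate number, median centring, array weights, a variance trend, unmoderated variances, natural logarithms, genes in place of probes, each array left out, and, added after the data were seen, scaling to E1A control spots. Python 3.11.15 and matplotlib 3.10.9 were used for counts and figures.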

Additional observations from a re-analysis of the deposited data

Results flagged for a closer look

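In 60 groups of 4 arrays, those of the 17 probes, of the CFC1 probe and of the 12 genes named from the pathway lists, 4 held an array whose gap to the nearest other array exceeded Dixon's critical share of the range of the group, a size that chance gives in about 1 of 20 groups. Mock replicate 3 stood high for DHRS3, at 0.29 (0.896 of the range), and for RXRB, at 0.43 (0.855). Mock replicate 1 stood low for CRABP2 probe A_23_P115064, at -0.20 (0.83). Mock replicate 4 stood high for STRA6 probe A_33_P3307495, at 1.25 (0.84). Each of these arrays lay on the same side of all 4 arrays labelled CFC1 as the rest of its group.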

How the results depend on the processing

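All 13 probes that passed kept their call and direction under each of 16 alternatives, with adjusted p-values of at most 0.0167, and none of the other 4 gained a call. The natural logarithm, which is among the 16, multiplies all values alike and could not change a call. By the mean of each gene's probes, 7 of the 10 genes passed, all lower; 8 genes had at least 1 probe that passed, and RARA lost its call when its probes were averaged (0.13, adjusted p = 0.16). RARA probe A_23_P207842 turned to -0.056 after quantile normalization and ran from -0.104 to 0.103 with an array left out; it passed nowhere. Quantile normalization made the largest falls larger, and also those of RARG (-0.836) and CRABP2 probe A_23_P115064 (-0.47). It made smaller those of STRA6, CRABP1 (-1.22 and -1.068) and CRABP2 probes A_33_P3294826 (-1.407) and A_21_P0001745 (-0.849). The cause was not tested. The CFC1 probe passed with array weights (-0.805, adjusted p = 0.046), in the fit over genes (-0.796, adjusted p = 0.0398), without mock replicate 4 (-0.944, adjusted p = 0.0376) and without CFC1 replicate 1 (-0.941, adjusted p = 0.0393), and ran from -0.944 to -0.568 with an array left out. Same-numbered arrays correlated at 0.095 to 0.197 in their deviations from the group means and others at -0.11 to 0.059, and all 8 correlated best with their own number, a hint from the data and not the design. With the replicate number as a block, 13 of the 17 probes, 29 of the 55 list genes (28 without it) and 21980 of all probes (21289 without it) passed, and the CFC1 probe had an adjusted p of 0.0972. Read as natural logarithms, all differences would be larger (CYP26A1 at -6.19).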

Other observations

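FABP5 and CRABP2, which can both carry retinoic acid, differed in opposite directions. FABP5, whose value is uncertain because of its pseudogenes, was higher by 4.08 as the mean of its 3 probes. CRABP2 was lower by 1.12 as the mean of 3 probes that ran from -1.62 to -0.40. PPARD was higher by 0.56, where 29.7% of all genes were called higher. The difference between FABP5 and CRABP2 and any link to PPARD were not tested. NCOA2, a coactivator chosen here after its value was seen, was lower by 1.09 (adjusted p = 0.0184 in limma over genes), although its groups overlapped and mock replicate 3 (0.04) lay among the arrays labelled CFC1. RXRG, the RXR partner found in muscle and nervous tissue, did not pass (-0.62, adjusted p = 0.138), with mock replicate 2 at 0.27 and the other mock arrays between -1.2 and -0.93.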
